A study of Mus musculus with 59 samples.

Results

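The 78 genes described here encode proteins of the mitochondrial ribosome and were followed in mouse prefrontal cortex across 6 arms of genotype and drug. They were chosen by name: every row of the expression table whose symbol was Mrpl or Mrps followed by a number and at most 1 letter, averaging 10 or more normalized counts over all libraries. Of 18088 genes listed, 78 matched, 49 named for the large subunit (Mrpl) and 29 for the small subunit (Mrps). No matching row fell under the minimum, and the members closest to it were Mrpl23 with a mean of 101 and Mrps28 with 159, so the minimum removed no member.

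The 59 mice were C57BL/6J males and females, either heterozygous for a Shank3 KI allele (HT) or wild type (WT). The protein made from Shank3 organises receptors at excitatory synapses. The arms were vehicle, lithium and fluoxetine in each genotype; drug reached the pups through the milk of the dam from postnatal day 3 to 24, and cortex was taken at postnatal day 25. Each arm held 5 females and 5 males, except WT lithium with 4 females. Lithium is a mood stabiliser and fluoxetine a serotonin reuptake inhibitor. The labels give neither the dose nor the litter, so pups of 1 dam were counted as independent, and p-values measure only the spread between these pups. Counts per gene do not separate alleles and do not check the genotype labels.

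Mitochondria carry their own ribosome. Its RNAs are copied from mitochondrial DNA, whereas its proteins are all encoded in the nucleus, made in the cytosol and imported. It makes only the proteins encoded by mitochondrial mRNAs, which are core subunits of the respiratory chain and of ATP synthase, and neurons draw much of their ATP from these complexes. Some of its proteins have a bacterial counterpart, while others were added during the evolution of mitochondria.

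The genes lie on 17 chromosomes, and all are annotated as protein coding in GENCODE on build GRCm38. The sequences in front of the genes are shown for 6 of the 24 members that passed the lithium test in 1 or both genotypes, because these are the members the results turn on and they are scattered over the genome. RefSeq promoter windows (build GRCm38.p6, 250 bases before the annotated start) were found for 69 of the 78 members. Only the longest stretch of a window that overlaps no GENCODE exon on either strand is printed, 5′ to 3′ on the strand of the gene, for genes where it reached 50 bases. Capitals mark a motif match. Mrpl11 and Mrpl30 were lower with lithium in both genotypes, Mrps15 in WT mice, and Mrps14, Mrps22 and Mrpl50 in HT mice.
Mrpl11 (chr19:4962056-4962146, plus strand): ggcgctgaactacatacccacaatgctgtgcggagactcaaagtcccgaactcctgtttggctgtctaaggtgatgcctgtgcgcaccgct
Mrpl30 (chr1:37890412-37890476, plus strand): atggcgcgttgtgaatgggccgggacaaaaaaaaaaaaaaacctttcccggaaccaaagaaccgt
Mrps15 (chr4:126046678-126046924, plus strand): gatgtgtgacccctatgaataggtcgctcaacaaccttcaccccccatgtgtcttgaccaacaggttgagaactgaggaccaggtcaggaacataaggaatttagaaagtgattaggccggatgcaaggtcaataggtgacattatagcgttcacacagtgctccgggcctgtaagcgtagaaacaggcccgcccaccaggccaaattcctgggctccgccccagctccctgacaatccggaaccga
Mrps14 (chr1:160194965-160195214, plus strand): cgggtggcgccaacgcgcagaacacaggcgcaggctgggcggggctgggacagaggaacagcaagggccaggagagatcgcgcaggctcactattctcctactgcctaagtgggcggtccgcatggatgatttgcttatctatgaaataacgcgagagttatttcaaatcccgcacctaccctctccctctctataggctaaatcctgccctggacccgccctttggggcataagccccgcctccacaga
Mrps22 (chr9:98601680-98601929, minus strand): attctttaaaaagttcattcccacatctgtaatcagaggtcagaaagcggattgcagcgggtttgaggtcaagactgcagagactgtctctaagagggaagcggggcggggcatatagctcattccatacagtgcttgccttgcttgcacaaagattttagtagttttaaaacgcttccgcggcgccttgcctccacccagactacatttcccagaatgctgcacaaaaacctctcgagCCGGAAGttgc
Mrpl50 (chr4:49521094-49521175, minus strand): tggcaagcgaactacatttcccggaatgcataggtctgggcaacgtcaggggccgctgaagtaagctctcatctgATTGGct

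Motifs were searched on both strands as exact letters in the whole windows. These were GCGCATG, a part of the palindromic site of the factor NRF1, then CCGGAAG, the core of ETS-family sites such as that of GABP, then CCAAT, and TATAAA. No motif contains another, and no printed match overlaps another. The ETS core was present in 18 of 75 member windows (24%) against 6.91% of 32851 windows of all genes. The NRF1 letters were present in 8 member windows (10.7%), those of Mrpl32 and Mrpl39 among them, against 3.24%. CCAAT was present in 37.3% against 33.8%, and TATAAA in 6.67% against 12.4%. In the sequences above, the ETS core stands near the end of the Mrps22 stretch and the reverse of CCAAT near the end of the Mrpl50 stretch, while the stretches of Mrpl11, Mrpl30, Mrps14 and Mrps15 hold no match. A match describes letters and was not linked to binding here.

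Libraries held between 22984556 and 35969254 reads. In all 59 libraries the markers of cortical excitatory neurons were present, with summed normalized counts from 88271 to 190905. The index of 8 olfactory bulb markers (the mean of each marker relative to its own mean over all libraries) had group medians of 1.23 and 1.15 in WT vehicle females and males. Its arm medians were 0.732 and 0.451 for WT lithium and fluoxetine and 0.690, 0.196 and 0.398 for HT vehicle, lithium and fluoxetine. The medians differed, but the libraries of the arms overlapped widely. The index ranged from 0.102 to 2.28 in WT vehicle and from 0.141 to 2.50 in WT lithium mice. In HT mice it ranged from 0.105 to 3.08 with vehicle and from 0.0856 to 3.05 with lithium. None of the 8 markers passed by limma with either drug in either genotype, or between HT and WT vehicle mice. Mitochondrial mRNAs took between 2.33% and 8.40% of all values. The libraries that stood apart on these 2 measures, 5 in all, had a bulb index over 3 or a mitochondrial share under 4%: HT lithium females 4 and 5, HT vehicle male 4 and WT fluoxetine females 1 and 4. The counts of members passing with lithium, and with fluoxetine in WT mice, are given with and without them. Counts and values for females or males alone are given only with them. HT vehicle female 1 stood apart on choroid plexus markers, with a summed level of 52799 where no other library exceeded 367, and it was kept among the controls. Without it 14 members passed with lithium and 1 with fluoxetine in HT mice, and none between HT and WT vehicle mice by limma. In bulk tissue, fewer cells of a type and less RNA per cell cannot be told apart.

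Together the 78 genes took a small and narrow share of all values, from 0.160% to 0.204% per library with a median of 0.175%. Per kilobase of transcript, the median member reached a normalized count of 527, against 234 for all genes tested, with 557 for Mrpl and 489 for Mrps genes. The highest levels per kilobase were those of Mrpl20 (2163), Mrps17 (1692) and Mrps21 (1672). The lowest were those of Mrpl1 (102), Mrpl47 (113) and Mrps30 (133). Member transcripts were short, with a median of 1052 bases against 2189 for all genes tested, and of the same median GC content (50.5%). The ratio of the highest to the lowest library had a median of 1.58 over the members. It was smallest for Mrps5 (1.25), whose arm means all lay between 1192 and 1204, and largest for Mrpl23 (2.81) and Mrpl33 (2.35). Mrps6, another small-subunit gene, had arm means between 448 and 482.

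Lithium was compared with vehicle in WT mice with limma on log2(normalized count + 1), and an adjusted p under 0.05 (Benjamini-Hochberg over 16599 genes) was counted as passing. In WT mice 15 of the 78 genes were lower with lithium and none was higher. That is 19.2% of the members, while 12.8% of all genes passed in either direction, 5.11% lower and 7.66% higher. The median log2 change of the members was −0.10 against −0.00 for all genes, and 71 of 78 (91.0%) had a change below 0 against 51.0% of all genes. Changes ranged from −0.30 to 0.08. By symbol, 9 of the 49 Mrpl genes and 6 of the 29 Mrps genes were lower, each group with a median of −0.10.

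Among large-subunit genes, Mrpl40, which in humans lies in the region deleted in DiGeorge syndrome, had normalized counts of 459, 493.2 and 572 (lowest, median and highest) in WT vehicle mice. With lithium they were 336, 408 and 463. Thus 8 of 9 lithium libraries lay below the lowest vehicle library, although the arms overlapped. The mean fell from 502 ± 37.7 (SD, n = 10) to 411 ± 39.1 (SD, n = 9), which is 81.9% of vehicle. On the log2 scale this was a change of −0.29 ± 0.06 (SE; limma adjusted p = 0.000665). Mrpl54, a mitochondria-specific protein, went from 303, 349.8 and 418 to 225, 282 and 314, again with 8 of 9 lithium libraries below every vehicle library. Its change was −0.30 ± 0.07 (limma adjusted p = 0.00393). Mrpl48 ranged from 1323 to 1676 around a median of 1450.3 in vehicle mice and from 1244 to 1435 around 1286 with lithium. It changed by −0.15 ± 0.05 (limma adjusted p = 0.0223), with 6 libraries below the vehicle range. Mrpl3, a core protein of the large subunit, had means of 1703 ± 108 (SD, n = 10) and 1562 ± 79.1 (SD, n = 9). Its change of −0.13 ± 0.04 was close to the threshold (limma adjusted p = 0.0415) and no longer passed in 14 of the 19 fits that left out 1 library.

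Among small-subunit genes, Mrps15 had values of 484, 510.4 and 561 with vehicle and of 396, 434 and 489 with lithium. Of its 9 lithium libraries 8 lay below the vehicle range, and the change was −0.24 ± 0.06 (limma adjusted p = 0.00191). Mrps34, in which human variants cause Leigh syndrome, went from 628, 706 and 798 to 517, 597 and 687. The change was −0.25 ± 0.08 (limma adjusted p = 0.0319). Mrps30, which sits in the large subunit despite its name, went from 409, 468 and 538 to 362, 412 and 456, a change of −0.18 ± 0.05 (limma adjusted p = 0.0203). Mrps30 lost its call without WT lithium male 4, at −0.16 and a limma adjusted p of 0.0524. Nearer to the threshold were Mrpl55 (−0.18), Mrps33 (−0.18) and Mrpl46 (−0.16), named here after their values were seen. For no member did the lithium and vehicle arms fail to overlap, as they did for 0.669% of all genes.

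Leaving out 1 library at a time ended the WT call of Mrpl48 in 3 of 19 fits, of Mrps34 in 7, of Mrpl55 in 6, of Mrps33 in 10 and of Mrpl46 in 14. The WT count moved with the processing. It was 9 without WT lithium female 1 or without WT vehicle female 3, 8 with the trend on transcript length removed, when 8.95% of all genes passed, and 32 with the bulb index and the mitochondrial mRNA share as covariates. Without the libraries that stood apart, 16 members passed. For this fit and the covariate fit, the share of all genes that passed is not given, here or in later comparisons. Of the 6 endothelial and mural cell markers, 3 were lower with lithium in WT mice (Pdgfrb, Cldn5 and Kdr), with a summed level of 6727 to 9771 against 7032 to 10370 with vehicle. Their part in the result was not tested.

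In HT mice, 13 of the 78 genes were lower with lithium and 1 was higher. These 14 are 17.9% of the members, while 20.3% of all genes passed; lower genes were 16.7% of the members and 9.43% of all genes, and 10.9% of all genes were higher. The median log2 change was −0.06, and 56 of 78 genes (71.8%) had a change below 0 against 50.5% of all genes. Changes ranged from −0.30 to 0.19. By symbol, 8 of the 49 Mrpl genes were lower and 1 higher, and 5 of the 29 Mrps genes were lower.

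Mrpl39, a mitochondria-specific protein of the large subunit, was the member with the smallest p. Its normalized counts were 545, 613 and 666 in HT vehicle mice and 452, 506 and 553 with lithium. All but 1 of the 10 lithium libraries lay below the lowest vehicle library. The mean went from 609 ± 43.6 to 505 ± 26.4 (SD, n = 10 each), or 82.9% of vehicle, a log2 change of −0.27 ± 0.04 (limma adjusted p = 8.44e-06). Mrpl50, also mitochondria-specific, went from 815, 961 and 1199 to 695, 819 and 879, with 5 lithium libraries below the vehicle range. The change was −0.28 ± 0.06 (limma adjusted p = 0.000184). Mrpl47 went from 339.6, 429 and 491 to 309, 337 and 427, a change of −0.29 ± 0.06 (limma adjusted p = 0.00108). Mrpl32, whose protein matures by cleavage by the m-AAA protease, went from 391, 471 and 583 to 351, 413 and 457. It changed by −0.23 ± 0.05 (limma adjusted p = 0.00186), with 3 libraries below the vehicle range. Mrpl1, a counterpart of the mobile stalk protein of bacteria, went from 337, 382 and 419.9 to 291, 326 and 368. Its change was −0.23 ± 0.06 (limma adjusted p = 0.00427), and 7 lithium libraries lay below every vehicle library.

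In the small subunit, Mrps22, in which human variants cause mitochondrial disease, went from 359, 440.3 and 492 in HT vehicle mice to 333, 360.0 and 373 with lithium. The lithium libraries were narrowly grouped, with a mean of 357 ± 14.4 against 438 ± 50.8 (SD, n = 10 each). The mean was 81.6% of vehicle and the log2 change −0.29 ± 0.05 (limma adjusted p = 1.54e-05). Mrps31 went from 419, 462 and 505 to 331, 369 and 428, and 9 of 10 lithium libraries lay below the vehicle range. Its change of −0.30 ± 0.06 (limma adjusted p = 0.000224) was matched in size by no other member in HT mice. Mrps14 went from 612, 711 and 827 to 456, 605 and 644. It changed by −0.27 ± 0.06 (limma adjusted p = 0.00194), with 6 lithium libraries below every vehicle library.

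The 1 member that was higher was Mrpl4, a core large-subunit protein, which rose from 850.4, 956 and 1081 to 958, 1096 and 1202. The mean was 112% of vehicle, 5 lithium libraries lay above the vehicle range, and the change was 0.16 ± 0.05 (limma adjusted p = 0.0190). With the trend on GC content removed, the change of Mrpl4 was 0.04 (limma adjusted p = 0.632). Mrpl20, the member with the highest level per kilobase, had means of 1196 ± 187 and 1045 ± 157 (SD, n = 10 each) and changed by −0.19 ± 0.07 (limma adjusted p = 0.0295). Without HT lithium female 5, the library with 2.33% of mitochondrial mRNA, the change of Mrpl20 was −0.14 (limma adjusted p = 0.103), and the call was also lost without any 1 of HT lithium male 4, HT vehicle female 2 and HT vehicle males 1 and 5. No member had arms that failed to overlap, against 1.02% of all genes.

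Without the libraries that stood apart, 16 members passed in HT mice, and with the bulb index and mitochondrial mRNA share as covariates 21 did, 20 of them lower. For neither fit is the share of all genes that passed given. Markers of several cell types moved with lithium in HT mice. Of 4 markers of oligodendrocyte precursors 2 were higher (Cspg4 and Gpr17), with a summed level of 5737 to 7801 against 4268 to 6671 with vehicle. Of 6 microglial markers 3 were higher (Csf1r, C1qa and Tmem119), with 6698 to 8131 against 5268 to 7691. Of 6 astrocyte markers 2 were higher (49386 to 65732 against 42846 to 59125), and of 6 endothelial and mural markers 2 (7849 to 11624 against 8309 to 10095). Of 7 excitatory neuron markers 1 was higher (Cux2), and of 6 inhibitory neuron markers 1 (Pvalb). The median changes of these 2 lists were 0.14 and 0.02. Of all genes, 10.9% were higher in this comparison. Summed inhibitory levels were 19891 to 28399 with lithium against 18896 to 29003 with vehicle. Mog (−0.50 ± 0.20) and Mbp (−0.38 ± 0.20), of oligodendrocytes, did not pass. The part of these markers in the result was not tested.

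The calls in HT mice were spread unevenly over base composition. Of the 26 members with the lowest GC content (41.4% to 48.8%), 10 were lower with lithium, of the middle 26 there were 3, and of the 26 with the highest (52.7% to 60.6%) none. In WT mice the same 3 groups of genes gave 6, 4 and 5. Calls of all genes were not counted by GC content, so this spread is not shown to be particular to the members. With the GC trend removed, Mrpl32 (−0.10), Mrpl1 (−0.10), Mrps18c (−0.18) and Mrpl30 (−0.13) no longer passed in HT mice. Others newly passed there, Mrpl54 and Mrps34 among them, so that 12 members were lower, against 13 in the main fit. Of all genes, 11.4% then passed, against 20.3% in the main fit. Mrpl39, Mrps31 and Mrpl47 passed in HT mice under every alternative run, females alone and males alone included.

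Lithium mice of both genotypes, set against separate vehicle arms, had lower levels of 5 members: Mrpl11, Mrpl30, Mrpl39, Mrps10 and Mrps18c. They make up 38.5% of the HT list and 33.3% of the WT list, and 6.41% of the members, where 2.21% of all genes were lower in both. In either genotype 23 members were lower, where 9.43% of all genes were lower in HT and 5.11% in WT mice. Changes were below 0 in both for 52 members, where 50.5% of all genes were below 0 in HT and 51.0% in WT mice. The shares of all genes lower in either genotype, or below 0 in both, are not given. Fewer of the 5 passed in both genotypes under some alternatives: 4 without the libraries that stood apart or in the fit of only the groups compared, and 3 with either the GC or the length trend removed. In females alone 9 members were lower in both genotypes, 3 of these 5 among them, and in males alone there were none. Of all genes in females alone, 5.45% were lower in HT and 2.99% in WT mice, and the share lower in both is not given.

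**Figure D1:**
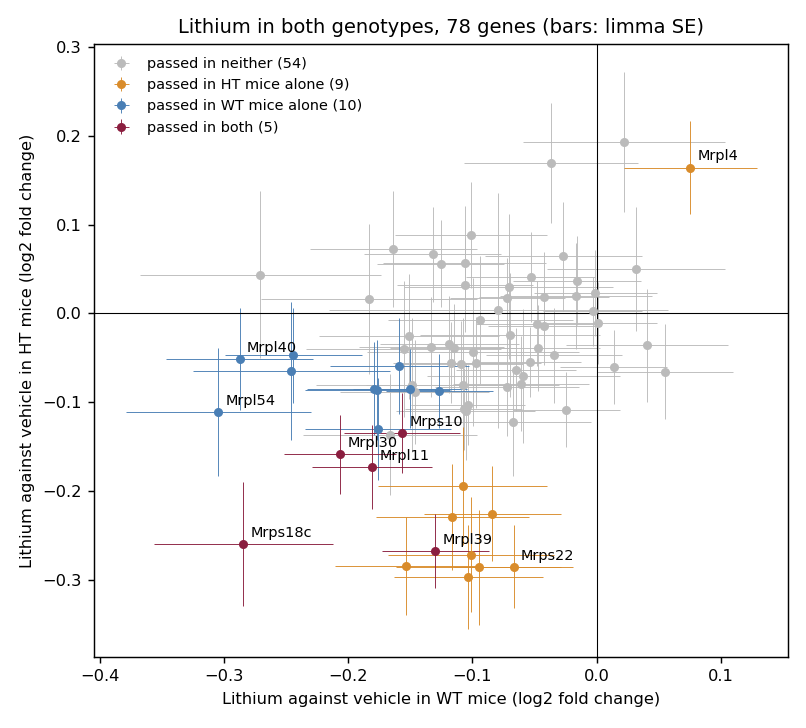
Log2 change with lithium of each of the 78 genes in WT mice (horizontal axis) and HT mice (vertical axis), with limma standard errors as bars and colours for the genotype in which a gene passed. Genes that passed sit mostly in the lower left, with 5 lower in both, 9 passing in HT mice alone, 10 in WT mice alone and 54 in neither; Mrpl4 is the 1 gene that passed above 0.

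Mrpl39 (chr16:84717576-84735742) had a median of 595 in WT vehicle and 544 in WT lithium mice. The WT change was −0.13 ± 0.04 (limma adjusted p = 0.0358), smaller than the HT change, and the call was lost in 8 of 19 fits that left out 1 library. Mrps18c (chr5:100798627-100804471) is 1 of 3 mouse relatives of a single bacterial small-subunit protein. Its values were 266, 322 and 406 in WT vehicle, 217, 261 and 347 in WT lithium, 292, 344 and 391 in HT vehicle and 243, 295 and 309 in HT lithium mice. The lithium arms were lower by −0.28 ± 0.07 in WT mice (limma adjusted p = 0.00537) and by −0.26 ± 0.07 in HT mice (limma adjusted p = 0.00574). The 2 relatives did not pass: Mrps18a changed by −0.11 and 0.03 in WT and HT mice, and Mrps18b by −0.07 and −0.08. The predicted gene Gm43511 shares exons with Mrps18c on the same strand, so the split of reads between them is uncertain.

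Mrpl11 (chr19:4962147-4966999), counterpart of the bacterial protein at the base of the stalk, had values of 818, 903 and 1100.0 in WT vehicle and 761, 813 and 874 in WT lithium mice. In HT mice they were 792, 960.1 and 1135, then 744, 833 and 894. Vehicle mice were widely spread and lithium mice grouped near the low end of the vehicle range in both genotypes. The changes were −0.18 ± 0.05 (limma adjusted p = 0.00891) in WT and −0.17 ± 0.05 (limma adjusted p = 0.00629) in HT mice. Mrpl30 (chr1:37890477-37898535), which starts head to head with Mitd1, went from 812, 893 and 1047 to 707, 812 and 875 in WT mice. In HT mice it went from 855, 933 and 1065 to 745, 854 and 939.8. The changes were −0.21 ± 0.05 (limma adjusted p = 0.00139) and −0.16 ± 0.04 (limma adjusted p = 0.00738). Mrps10 (chr17:47368887-47381417) had means of 548 ± 28.1 (SD, n = 10) and 492 ± 26.6 (SD, n = 9) in WT mice, and of 546 ± 43.7 and 496 ± 20.6 (SD, n = 10 each) in HT mice. It changed by −0.16 ± 0.05 (limma adjusted p = 0.0181) and −0.13 ± 0.05 (limma adjusted p = 0.0262). The HT call of Mrps10 was lost without HT vehicle female 3 or male 5, and at a limma adjusted p of 0.0561 without the libraries that stood apart.

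**Figure D2:**
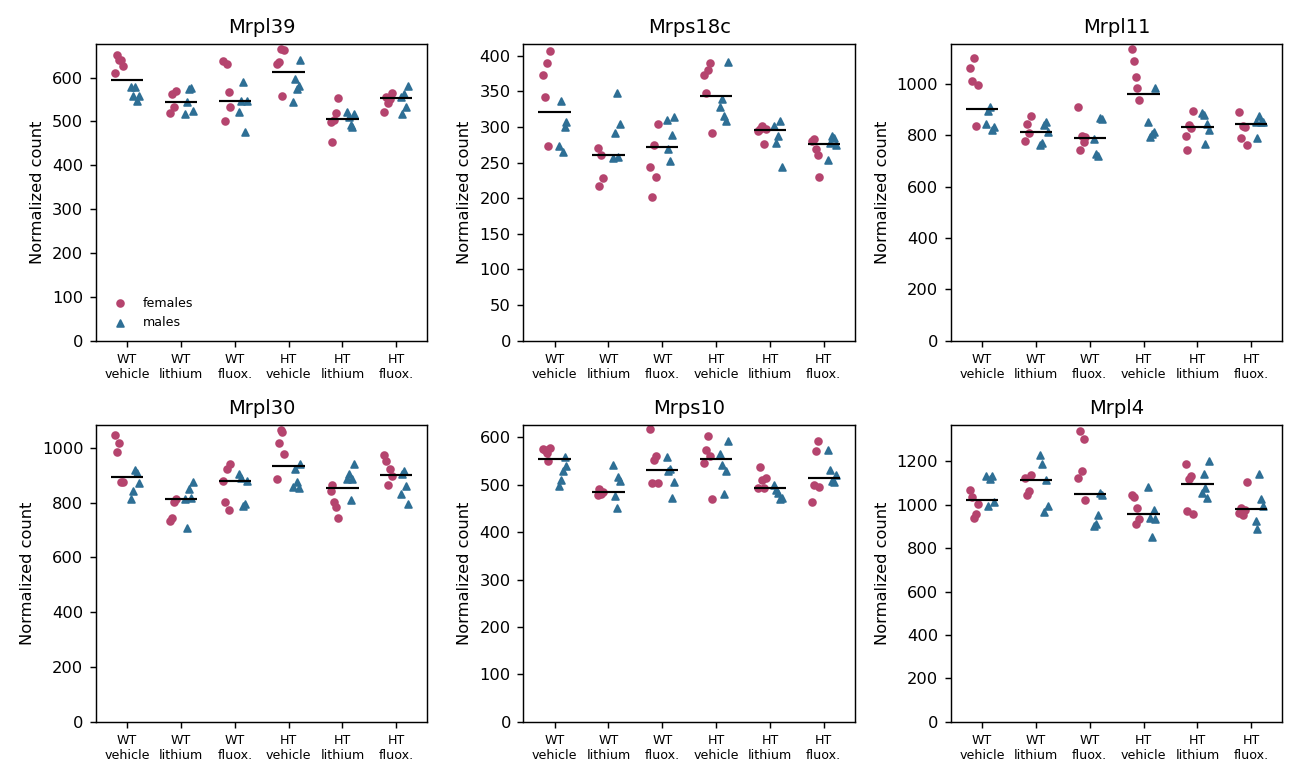
Normalized counts (vertical axes, from 0) of Mrpl39, Mrps18c, Mrpl11, Mrpl30, Mrps10 and Mrpl4 in every library of the 6 arms, females and males marked separately, with a line at each arm's median. The 5 genes lower with lithium in both genotypes have lower medians there but libraries that overlap with vehicle, and Mrpl4 sits higher in HT lithium than in HT vehicle mice.

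The test of a different lithium effect in the 2 genotypes passed for no member by limma, 12 at an unadjusted p under 0.05, and for 0.00602% of all genes. The smallest adjusted p was that of Mrps22, whose change was more negative in HT than in WT mice by −0.22 ± 0.07 (limma adjusted p = 0.208). For Mrpl40 the difference, HT minus WT, was 0.24 ± 0.08 (limma adjusted p = 0.263). Members that passed in 1 genotype alone are therefore not shown to differ between genotypes.

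Mean levels of the 78 genes differed between females and males in the vehicle arms. In HT vehicle mice the mean log2 value over the 78 genes was 9.33 ± 0.05 in females and 9.19 ± 0.07 in males (SD, n = 5 each), and 74 of 78 genes (94.9%) had the higher mean in females, where 49.7% of all genes did. In WT vehicle mice it was 9.30 ± 0.05 and 9.21 ± 0.02, with 64 genes (82.1%) higher in females against 46.9% of all genes. With lithium the order was the other way round in HT mice: 9.17 ± 0.07 in females and 9.24 ± 0.03 in males. There 19 genes (24.4%) were higher in females, against 49.9% of all genes. WT lithium females were also lower, but the means were closer, 9.14 ± 0.02 in females (n = 4) and 9.17 ± 0.04 in males. In these WT mice 29 genes (37.2%) were higher in females, against 51.1% of all genes. With fluoxetine the means were 9.22 ± 0.03 and 9.18 ± 0.05 in HT, and 9.20 ± 0.07 and 9.17 ± 0.06 in WT females and males. Higher in females were 56 genes in HT and 50 in WT fluoxetine mice, against 51.5% and 49.6% of all genes. These levels are a description, with no test. The bulb index had medians of 0.430 in HT vehicle females and 0.972 in males, then 1.36 and 0.122 with lithium. In WT mice they were 1.23 and 1.15 with vehicle, and 0.577 and 0.732 with lithium. With fluoxetine they were 0.481 and 0.349 in HT, and 2.69 and 0.162 in WT females and males. The part of the bulb index in the sex pattern was not tested.

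**Figure D3:**
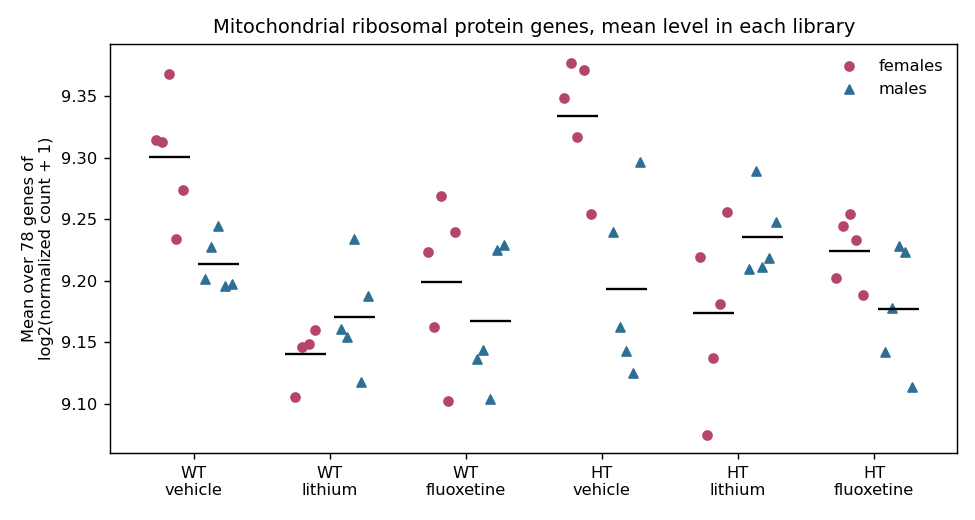
Mean log2(normalized count + 1) over the 78 genes (vertical axis) in each library of the 6 arms, circles for females, triangles for males, and a black line at the mean of each group of genotype, drug and sex. Vehicle females are highest in both genotypes (means 9.33 and 9.30), and lithium females lie lower (9.17 and 9.14).

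In each sex alone, lithium gave 18 lower members in HT females, where 5.45% of all genes were lower, and 15 in WT females, where 2.99% were. HT lithium females 4 and 5, which stood apart, were kept in these values. In HT males 3 members were lower and 1 higher, against 4.38% and 5.31% of all genes, and in WT males 1 was lower, against 0.946%. The median change over the members was −0.14 in HT females and 0.05 in HT males, with 72 and 24 genes below 0. In WT mice it was −0.15 and −0.04, with 73 and 53 below 0. Some genes had similar changes in both sexes, such as Mrpl39 (−0.32 and −0.21 in HT females and males), Mrps31 (−0.32 and −0.28), Mrpl47 (−0.30 and −0.27) and, in WT mice, Mrpl40 (−0.30 and −0.28) and Mrpl54 (−0.31 and −0.30). Others had values far apart. Mrpl11 changed by −0.33 and −0.01 in HT females and males, Mrpl30 by −0.31 and −0.01, Mrpl20 by −0.48 and 0.10, Mrps22 by −0.44 and −0.13, and in WT mice Mrps18c by −0.54 and −0.03.

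**Figure D4:**
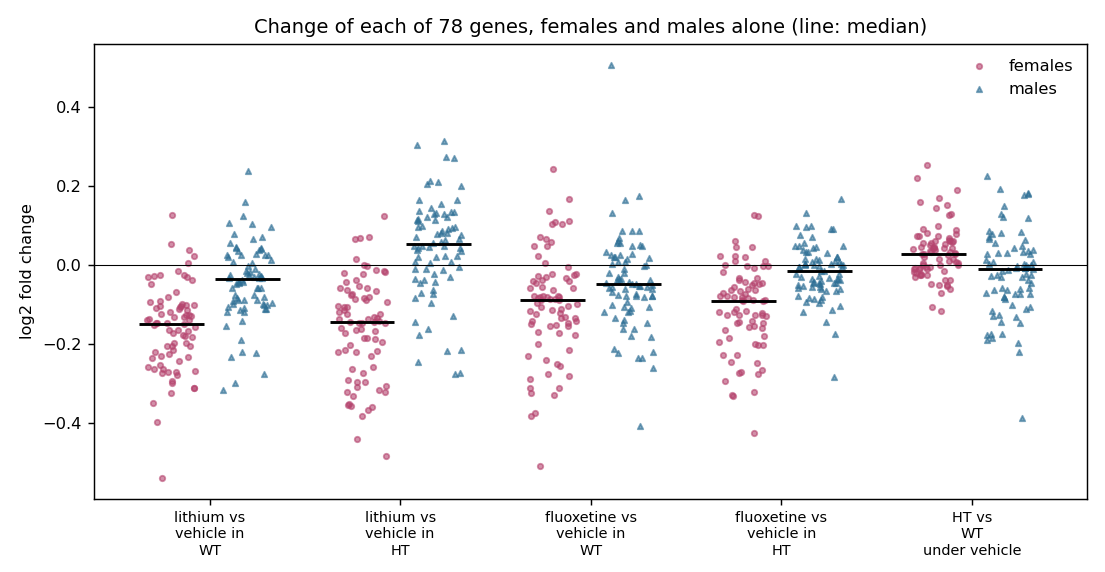
Log2 change of each of the 78 genes in females alone and in males alone (points, vertical axis) for lithium and fluoxetine against vehicle in HT and WT mice and for HT against WT vehicle mice, with a line at the median. The lithium medians are −0.14 and −0.15 in HT and WT females, and 0.05 and −0.04 in males.

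The difference between the sexes in the lithium effect was tested directly and passed for no member by limma, in either genotype. In HT mice 0.0120% of all genes passed, and 30 members had an unadjusted p under 0.05. The median difference, female minus male change, was −0.19 with 75 of 78 genes below 0. Mrpl20 (−0.58 ± 0.13) and Mrps33 (−0.50 ± 0.11) had the smallest adjusted p (limma, 0.0664 for both). The count was 2 with the GC trend removed, 5 without HT vehicle male 5, 2 without HT lithium female 1 or HT vehicle female 1 or 5, and 1 without HT vehicle male 1. In WT mice no gene of all those tested passed (0.0%), 11 members had an unadjusted p under 0.05, and the median difference was −0.11, with Mrps22 at −0.45 ± 0.10 (limma adjusted p = 0.0983).

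Fluoxetine was compared with the same vehicle mice, so its values share the control libraries of the lithium values. In WT mice 4 of the 78 genes were lower and none higher (5.13%), close to the 5.66% of all genes that passed, of which 2.11% were lower. The median was −0.06, with 68 genes below 0. Mrpl11 had values of 721, 789.6 and 911 and changed by −0.22 ± 0.05 (limma adjusted p = 0.00345), with 7 of 10 libraries below the vehicle range. Mrps18c, at 202, 272 and 314, changed by −0.28 ± 0.07 (limma adjusted p = 0.0117). Mrpl40, at 366, 445 and 485, changed by −0.22 ± 0.06 (limma adjusted p = 0.0153), and Mrps15, at 406, 461 and 508, by −0.18 ± 0.05 (limma adjusted p = 0.0381). Both had most of their 10 libraries, 8 and 7, below every vehicle library. Mrpl40 lost its call without WT fluoxetine female 2 (−0.19, limma adjusted p = 0.0504), and Mrps15 in 10 of 20 fits that left out 1 library. The count was 9 without the libraries that stood apart, 24 with the bulb index and mitochondrial share as covariates, and 2 in the fit of only the groups compared, with the length trend removed, or without WT fluoxetine female 2. It rose to 7 without WT fluoxetine female 1, 3 or 5. For the covariate fit and the fit without the libraries that stood apart, no share of all genes is given. The oligodendrocyte markers Mog (−0.76 ± 0.20) and Mbp (−0.65 ± 0.20) were lower with fluoxetine in WT mice, where 3 of the 6 on that list passed. The part of these markers in the result was not tested.

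In HT mice Mrps18c was the 1 member that fell with fluoxetine, where 0.277% of all genes passed and 0.0723% were lower. Its values were 292, 344 and 391 in vehicle and 229, 276 and 287 in fluoxetine mice. All 10 fluoxetine libraries lay below all 10 vehicle libraries, and no other gene of the 16599 tested (0.00602% in all) had arms that did not overlap. The mean went from 346 ± 35.8 to 270.1 ± 17.8 (SD, n = 10 each), or 77.9% of vehicle, a log2 change of −0.35 ± 0.07 (limma adjusted p = 0.0198). The adjusted p passed 0.05 without HT fluoxetine female 5 (−0.33, 0.0729), HT fluoxetine male 3 (−0.36, 0.0518), HT vehicle female 3 (−0.34, 0.0676) or HT vehicle male 5 (−0.33, 0.0638) by limma, and with the GC trend (−0.32, 0.0544) or length trend (−0.32, 0.0535) removed. The count rose to 3 without HT vehicle female 5, to 2 without HT vehicle male 2, and to 6 with the bulb index and mitochondrial share as covariates. Next in order, Mrps22 (−0.17 ± 0.05, limma adjusted p = 0.0701) and Mrpl39 (−0.15 ± 0.04, limma adjusted p = 0.0929) did not pass. The members' median was −0.06 with 63 of 78 below 0.

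In females alone 13 members were lower and 1 higher with fluoxetine in WT mice, against 7.07% and 6.3% of all genes, and 3 were lower in HT mice, against 0.295%. WT fluoxetine females 1 and 4, which stood apart, were kept in these counts. In males alone no member passed by limma in either genotype, where 0.608% of all genes were lower in WT mice and 0.0% in HT mice.

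The fluoxetine effect differed between the sexes for 5 members in WT mice (6.41%), where 8.66% of all genes passed. Mrpl1 had values of 369, 406 and 441 in vehicle females and 294, 302 and 366 in fluoxetine females, against 301, 303 and 349 in vehicle males and 277, 380.0 and 385 in fluoxetine males. The female change was more negative by −0.50 ± 0.12 (limma adjusted p = 0.00896). Mrpl32 in females went from 476, 481 and 579.6 to 359.7, 393 and 401, while males went from 374, 407 and 445 to 368, 435 and 459. Its difference was −0.44 ± 0.11 (limma adjusted p = 0.0107). Mrpl50 in females went from 918, 1021 and 1060.3 to 757, 823 and 850.2, and in males from 755, 797 and 852 to 749, 842 and 892. Its difference was −0.38 ± 0.11 (limma adjusted p = 0.0267), and that of Mrps18c −0.46 ± 0.14 (limma adjusted p = 0.0321). In females the fluoxetine and vehicle libraries did not overlap for Mrpl1, Mrpl32 and Mrpl50, nor for Mrps31, which makes 4 of 78 members against 5.18% of all genes. Mrpl4 went the other way, with 939.6, 1002 and 1068 in vehicle females, 1023, 1156 and 1342 in fluoxetine females, 996, 1116 and 1133 in vehicle males and 903, 952 and 1053 in fluoxetine males. Its difference was 0.39 ± 0.10 (limma adjusted p = 0.0159). None of the 5 passed with the GC trend removed, and 2 of the WT fluoxetine females stood apart by their bulb index, whose group median was 2.69 in these females and 0.162 in the males. Without the libraries that stood apart 3 members passed. Leaving out 1 library gave 2 (WT fluoxetine female 2) to 9 (WT fluoxetine female 3 or WT vehicle male 2), and 3 without WT fluoxetine female 4, WT fluoxetine male 1 or WT vehicle male 4. In HT mice no member passed this test by limma, with 7 at an unadjusted p under 0.05, and 0.0% of all genes.

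HT and WT mice were compared within each drug. By limma, with the sexes averaged, no member passed, and no gene of 16599 did (0.0%), under vehicle, lithium or fluoxetine. Under vehicle, edgeR and DESeq2 also called no member. Under vehicle 4 members had an unadjusted p under 0.05, the median change was 0.00, and the changes ranged from −0.11 to 0.15 with a median standard error of 0.05. The smallest p-values were those of Mrps22 (0.14 ± 0.05, limma adjusted p = 0.640), Mrpl20 (0.15 ± 0.07, limma adjusted p = 0.725) and Mrpl43 (−0.10 ± 0.05, limma adjusted p = 0.764). Under lithium 12 members and under fluoxetine 3 had an unadjusted p under 0.05, with medians of 0.05 and 0.02. In females alone under fluoxetine 1 member was lower in HT mice, where 2.96% of all genes passed. In males alone under vehicle no member passed, where 0.639% of all genes did. The fluoxetine effect differed between genotypes for no member by limma, and for none at an unadjusted p under 0.05.

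Grouped by origin, 46 members have a bacterial counterpart, 31 are specific to mitochondria and Mrps36, which also serves the 2-oxoglutarate dehydrogenase complex, was kept apart. With lithium in WT mice 8 of the 31 mitochondria-specific genes were lower, with all 31 changes below 0 and a median of −0.11, and 7 of the 46 others were lower, with a median of −0.10. In HT mice 4 of 31 were lower, and 9 of 46 lower with 1 higher. Of the stalk genes, Mrpl11 passed in both genotypes and Mrpl1 in HT mice, as given above, while Mrpl12 and Mrpl10 did not pass. Mrpl12, whose protein also binds the mitochondrial RNA polymerase, changed by −0.10 in WT and 0.09 in HT mice, and Mrpl10 by −0.12 and −0.06. Mrps12, at the decoding centre, had −0.04 and 0.17 (limma adjusted p = 0.0687 in HT mice). Mrps5 had −0.00 and 0.00 and Mrps6 0.03 and 0.05. Mrpl58, a peptidyl-tRNA hydrolase built into the ribosome, had −0.11 and −0.06, and Mrpl44 had −0.10 and −0.06. Mrpl33 had −0.16 and −0.04, Mrpl41 −0.17 and −0.14, Mrps16 −0.15 and −0.03, Mrps21 −0.13 and 0.07, and Mrps27 −0.05 and 0.04. None of those given values here, from Mrpl12 to Mrps27, passed in either genotype.

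Of 5 further ribosomal proteins under other symbols, Ptcd3, of the small subunit, was lower with lithium in HT mice (−0.19 ± 0.05, limma adjusted p = 0.00247), and none passed in WT mice. Of all genes, 20.3% passed with lithium in HT mice and 12.8% in WT mice, for comparison with each list in this paragraph. Of 26 genes of ribosome assembly and rRNA modification, 4 were lower and 1 higher in HT mice and 1 lower in WT mice. Mettl15, an rRNA methyltransferase, was lower in both (−0.30 and −0.25), Gtpbp10 (−0.27) and Ngrn (−0.18) were lower in HT mice, and the helicase gene Dhx30 was higher there (0.13). Of 15 translation factors, Guf1 was lower in HT mice (−0.25) and Gfm1, an elongation factor, higher in WT mice (0.14). Of 20 mitochondrial aminoacyl-tRNA synthetases, 3 were higher in HT mice, among them Aars2 (0.22) and Vars2 (0.19), and Pars2 was lower in WT mice (−0.26). The third, Lars2, changed by 0.87 ± 0.17. Some of these calls rested on single libraries: the WT calls of Mettl15 and Pars2 were lost in 9 and 10 of 19 fits that left out 1 library, that of Gfm1 without WT lithium male 5, and in HT mice that of Vars2 without HT lithium female 5 and that of Guf1 without HT lithium female 5 or HT vehicle male 5. The HT calls of Mettl15, Gtpbp10, Dhx30, Guf1 and Vars2 were also lost without the libraries that stood apart. With the GC trend removed, those of Ptcd3, Aars2, Gtpbp10, Dhx30, Guf1 and Vars2 were lost. With the length trend removed, the WT calls of Mettl15, Pars2 and Gfm1 were lost.

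Of 15 genes of mitochondrial transcription and its nuclear regulators, 3 were higher and 3 lower with lithium in HT mice, and 3 higher and 2 lower in WT mice. Of all genes, 10.9% were higher and 9.43% lower in HT mice, and 7.66% higher and 5.11% lower in WT mice. Polrmt, the mitochondrial RNA polymerase, rose in both, by 0.30 ± 0.05 in HT mice (limma adjusted p = 4.69e-05) and 0.25 ± 0.05 in WT mice (limma adjusted p = 0.00107). Ppargc1b, a PGC-1 family coactivator, rose by 0.50 ± 0.09 and 0.41 ± 0.09. Pprc1, of the same family, rose by 0.23 ± 0.07 and 0.25 ± 0.07, and its HT call was lost without the libraries that stood apart and with the GC trend removed. Mterf2, of the transcription termination factor family, fell by 0.37 and 0.23 on the log2 scale. Its WT call was lost without WT lithium female 4 and with the length trend removed. Tfb2m, a transcription initiation factor, fell by 0.27 in HT mice, a call lost with the GC trend removed. Nrf1 had 0.09 and 0.03 in HT and WT mice, Gabpa −0.07 and 0.04, Esrra 0.13 and 0.07 and Tfam −0.09 and −0.04, and none of the 4 passed. In WT mice with fluoxetine, Polrmt (0.24) and Ppargc1b (0.37) rose and Mterf2 (−0.24) fell, again against the shared vehicle mice. None of the list passed with fluoxetine in HT mice or between HT and WT vehicle mice.

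Of the 13 mRNAs of mitochondrial DNA, which this ribosome translates, mt-Co2, a subunit of cytochrome c oxidase, was higher with lithium in HT mice (0.90 ± 0.28, limma adjusted p = 0.0189), and the call was lost without HT vehicle female 5. The other 12 did not pass in HT mice, and none passed in WT mice, where 20.3% and 12.8% of all genes passed. These RNAs are abundant and their share varied between libraries, as given above.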

How the data were processed

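RNA was sequenced from prefrontal cortex of 59 mice after library preparation with a stranded mRNA kit, per the labels' protocols. Values were quantified by the authors with Salmon 0.11.2 and handled in R 3.6.0 with DESeq2 1.19.11 on build GRCm38, per the submitters' processing notes. The deposited unit is a normalized count, a signal equal to the count divided by a size factor of the library (0.783 to 1.245). All 59 value columns were matched to samples, and 0 were left unused. Dividing by the step between low values recovered whole reads for 100% of values within 0.001, and count tests on those reads were run as alternatives. In 5 libraries the step was near 1.

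The main test was limma 3.58.1 (R 4.3.3) on log2(value + 1), with trended, robust variances, a mean for each of the 12 groups of genotype, drug and sex, and 16599 genes with a mean of at least 10. Contrasts averaged the sexes, tests were two-sided, and p-values were adjusted by the Benjamini-Hochberg method within a comparison. Normalization to size factors assumes that most genes do not change, and fold changes on the log2(value + 1) scale understate those of low genes. Other settings tried were a pseudocount of 0.5 or 5, no filter on low values, quantile normalization, the replicate number as a block, only the groups compared, each sex alone, GC and length trends removed by loess, edgeR 4.0.16 (quasi-likelihood, TMM), DESeq2 1.42.0, and each library left out. The fits without the 5 libraries that stood apart and with covariates were added after seeing the data. Their counts of members are given without the share of all genes that passed in the same fit. In data simulated for the WT lithium comparison (16599 genes, 50 changed per fold), 19, 43, 46 and 50 were called at 1.2, 1.5, 2 and 4-fold.

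Named members were up to 10 that passed in each comparison by smallest p, or the first 3 where fewer than 3 passed, genes fixed for their role, the 3 highest and 3 lowest per kilobase, and up to 5 with an interaction that passed. From the other lists up to 4 per list and lithium comparison were named. Mrpl55, Mrps33, Mrpl46, Nrf1, Gabpa, Esrra and Tfam were named after their values were seen. The members, lists and tests were chosen with earlier results of these data known. Promoter windows are from RefSeq (GRCm38.p6) and exons from GENCODE vM21; Mrpl3, Mrpl33, Mrpl51, Mrpl53, Mrps18c, Mrps24, Mrps34 and Mrps6 share exon bases with another gene on the same strand, and a pseudogene row, Mrpl23-ps1, was measured apart from Mrpl23.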

Additional observations from a re-analysis of the deposited data

Results flagged for a closer look

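Among 228 groups of values tested, 15 held a library whose gap to its nearest neighbour was wide for the range of its arm; chance alone flags about 1 in 20. HT lithium female 5, the library with 2.33% of mitochondrial mRNA, was highest for Mrpl33 (776, others 400.0 to 504), Mrpl40 (572, others 391 to 479), Mrps12 (993, others 623 to 817) and Mrps27 (936, others 601 to 749), and lowest for Mrps14 (456, others 546 to 644). HT lithium female 2 was highest for Mrpl3 (1847, others 1529 to 1650.1) and Mrpl47 (427, others 309 to 364), and HT lithium male 5 lowest for Mrps18c (243, others 277 to 309).

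HT fluoxetine male 5 was highest for Mrpl3 (1753, others 1470.0 to 1612) and lowest for Mrps18a (668, others 769 to 877). WT fluoxetine female 4, with the highest bulb index of all libraries, was lowest for Mrps18a (645, others 755 to 865). WT lithium female 1 was lowest for Mrpl44 (340.3, others 401 to 453) and WT lithium male 4 for Mrpl54 (225, others 273 to 314). WT vehicle female 3 was highest for Mrpl48 (1676, others 1323 to 1507) and Mrps18b (509, others 407 to 458).

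By the limma test of the difference, the fluoxetine change in WT mice, female minus male, differed between the sexes for Mrpl1 (−0.50), Mrpl32 (−0.44), Mrpl4 (0.39), Mrpl50 (−0.38) and Mrps18c (−0.46).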

How the results depend on the processing

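In HT mice with lithium the number of members passing was 4 in males alone, 21 with the bulb index and mitochondrial share as covariates (20 lower, against 13) and 12 to 17 with 1 library left out; the median change was −0.14 in females alone and 0.052 in males alone, a reversed sign, and Mrpl20 in males alone was 0.10. In WT mice with lithium the number was 1 in males alone, 8 with the length trend removed, 32 with the bulb index and mitochondrial share as covariates, and 9 to 16 with 1 library left out, and the median in males alone was −0.035. With fluoxetine in HT mice it was 0 in the fit of only the groups compared, in males alone and with the GC or length trend removed, 3 in females alone, 4 by DESeq2, 6 with the covariates and 0 to 3 with 1 library left out. With fluoxetine in WT mice it was 2 in the fit of only the groups compared and with the length trend removed, 14 in females alone, 0 in males alone, 9 without the libraries that stood apart, 24 with the covariates and 2 to 7 with 1 library left out. Between HT and WT mice under fluoxetine 1 member passed in females alone, where 2.96% of all genes did. The sex difference under lithium passed in HT mice for 2 with the GC trend removed, 4 by DESeq2 and 0 to 5 with 1 library left out, and in WT mice for 1 by DESeq2, 1 with the covariates and 0 to 1 with 1 library left out (WT lithium female 2 or male 1). The sex difference under fluoxetine in WT mice passed for 8 after quantile normalization, 0 with the GC trend removed, 3 without the libraries that stood apart and 2 to 9 with 1 library left out. The cause of these shifts was not tested. A comparison within 1 sex rests on the means of fewer libraries, and the part of this in the shifts was not tested either. With replicate number as a block, 14 members passed with lithium in each genotype, 1 and 4 with fluoxetine in HT and WT mice, and 6 for the sex difference under fluoxetine in WT mice. The numbers do not pair the libraries: deviations of same-numbered libraries correlated above 0.1 in 89 of 319 pairs, with a median of −0.00859. Of values for single genes, 1289 were on the same side of the threshold with 1 library left out, 146 no longer passed and 2 newly passed; of the other alternatives 861 were on the same side, 145 no longer passed, 5 newly passed and 1 reversed.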
